A study of Mus musculus with 183 samples.

Results

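The 7 genes described here encode proteins that act on the 3′ ends of replication-dependent histone mRNAs or at the histone genes. Their mRNAs were followed in mouse embryonic stem cells (mESCs). They are Slbp, Eri1, Lsm10, Lsm11, Npat, Casp8ap2 and Zfp473, taken as a list by name from the 53380 genes of the count table. All 7 were counted in each library, and 6 of them (all but Zfp473) were among the 7240 mRNAs with a value of relative binding to decay factors. Histone mRNAs are the only abundant animal mRNAs without a poly(A) tail, and they end in a short stem-loop instead. SLBP binds that stem-loop, and the U7 snRNP, which holds LSM10 and LSM11 in place of 2 of the usual Sm proteins, pairs with the pre-mRNA downstream of it and directs the cut. ERI1 is a 3′-5′ exonuclease that binds the same stem-loop and trims it, NPAT and CASP8AP2 (FLASH) sit at the histone gene clusters, and ZFP473 is a zinc finger protein of the histone pre-mRNA processing complex.

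RNA was taken from 2 clonal lines in serum and LIF medium, each with or without 4-hydroxytamoxifen (4OHT) for 4 days, and then 0, 120, 240 or 360 min into transcription shut-off by actinomycin D, where 0 min is a mock treatment with DMSO for 6 h. Clone 5F carries Rosa26Cre-ERT2/- and Skiv2lfl/fl, so that 4OHT switches on Cre against Skiv2l, the helicase of the cytoplasmic exosome. Clone 7E is labelled Rosa26Cre-ERT2/BirA-V6 with tagged Skiv2l (3xFLAG-Avi/3xFLAG-Avi) and Aven-/-, and its titles name both Skiv2l and Aven. The background label of clone 7E does not list a floxed Skiv2l allele, which the study describes for this line. Each line is 1 clone, so clone and genotype cannot be told apart. The 47 libraries were 3 per clone, day and time (2 for clone 5F at day 0 and 120 min), and the study calls them technical replicates, so that p-values here measure only the spread between such samples. Relative binding came from other mESC lines. The study describes these as carrying Cre-ERT2 and BirA at Rosa26, with Skiv2l, Xrn1, Mtr4 or Aven tagged.

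The libraries held 24440935 to 34114250 counts in genes, and every pair of replicates differed by more than sampling noise. Replicate 2 at day 0 and 240 min stood apart in both clones, with a chi-square per degree of freedom of 60.54 to 93.95 against its 2 fellow replicates in clone 5F (11.92 between those) and of 67.89 to 75.08 in clone 7E (7.912). So did replicate 3 of day 4 at 360 min, at 44.93 to 90.95 in clone 5F (19.11) and 55.13 to 56.79 in clone 7E (13.67). Replicate 1 of day 4 at 120 min was at 35.04 to 40.05 in clone 5F (5.578) and 44.62 to 74.21 in clone 7E (9.64). In the slope fits only the day 0 replicate was left out on its own. As a check of the labels, Skiv2l was at 4136 to 4205 normalized counts at day 0 and at 3825 to 4415 at day 4 in clone 5F, with a log2 difference of -0.01 ± 0.05 (SE, adjusted p = 0.914). The Skiv2l count therefore did not separate the 5F libraries labelled day 4 from those of day 0. The count covers the whole gene, of which the loxP sites flank only a part. In clone 7E it was 902.8 to 1038 at day 0 and 367.5 to 405.5 at day 4 (log2 difference -1.32 ± 0.07, adjusted p = 7.78e-13), and Aven was at 997.8 to 1012 in clone 5F and at 56.58 to 85.99 in clone 7E at day 0. All 10 mESC markers exceeded a mean of 100 counts in the mock libraries, and the 7 fibroblast markers summed to 67.5 to 275 normalized counts against 94510 to 112400 for the mESC markers. The fibroblast genes Dcn, Lum and Postn and the trophoblast gene Elf5 had means under 10 counts.

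The stem-loop that SLBP and ERI1 bind and the U7 snRNA that LSM10 and LSM11 assemble on are shown first. The histone stem-loop was searched as 16 letters, GGNNC followed directly by TTTT and then by NAGNNCC. It was found on the coding strand in or within 200 bases of 61 of the 67 histone genes with counts. Less sequence was searched after genes on the minus strand than after those on the plus strand. Of the 61, 38 had the same 16 bases. The 3 histone genes with the highest mean counts all belong to the H1 family, and their stem-loops (GRCm38, capitals) are given with 5 bases on either side, 5′ to 3′. They lie at chr13:23764387-23764412 (plus strand), chr13:23555782-23555807 (plus strand) and chr13:21779832-21779857 (minus strand).
Hist1h1a: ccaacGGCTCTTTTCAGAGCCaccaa
Hist1h1d: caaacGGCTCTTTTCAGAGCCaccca
Hist1h1b: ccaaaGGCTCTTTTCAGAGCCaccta
The U7 snRNA gene, Rnu7, lies at chr6:124741225-124741286 on the minus strand (RefSeq, GRCm38) and is 62 bases long. The capitals mark its Sm site (bases 21 to 31), on which LSM10 and LSM11 assemble with 5 common Sm proteins. The bases before it pair with the histone pre-mRNA.
Rnu7: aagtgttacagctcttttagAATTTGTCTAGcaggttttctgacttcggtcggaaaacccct
Rnu7 had 0 counts in all 47 libraries, so U7 RNA itself was not measured here.

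The members lie on 6 chromosomes of GRCm38. Slbp is at chr5:33634952-33652574, Eri1 at chr8:35465253-35496196, Lsm11 at chr11:45928269-45944935 and Zfp473 at chr7:44731480-44751050, all on the minus strand. Lsm10 (chr4:126096623-126098584), Casp8ap2 (chr4:32615451-32653265) and Npat (chr9:53537047-53574342) are on the plus strand. The library kit does not keep the strand, so reads of overlapping genes cannot be told apart. An opposite-strand locus, Gm10459, shares 7.80% of the exonic bases of Slbp, and Vrk3 shares 2.04% of those of Zfp473. No other member overlaps an annotated gene.

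The order of the mock levels depended on the length used. Per kilobase of the 1 transcript per gene from which the 3′ UTRs were read, Slbp was highest and Lsm11 lowest in all 4 groups. In clone 5F at day 0 Slbp stood at 1759 ± 84.0 normalized counts per kb (SD, n = 3), Casp8ap2 at 793.1 ± 47.7 and Zfp473 at 683.2 ± 30.1, with ranges that did not overlap. Npat (615.5 ± 14.7) and Eri1 (597.3 ± 33.5) overlapped each other, and Lsm10 (356.3 ± 24.1) and Lsm11 (73.2 ± 0.974) came last. In clone 7E at day 0 Eri1, the trimming exonuclease, was second at 904.9 ± 18.6 per kb, below Slbp at 1753 ± 64.4. Per kilobase of all exonic bases of the gene, which are 6076 for Slbp against 1906 in the transcript, Slbp was at 551.8 ± 26.4 in clone 5F at day 0, behind Casp8ap2 (789.9 ± 47.5) and Npat (597.2 ± 14.3). Lsm11 was lowest by both lengths.

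**Figure D1:**
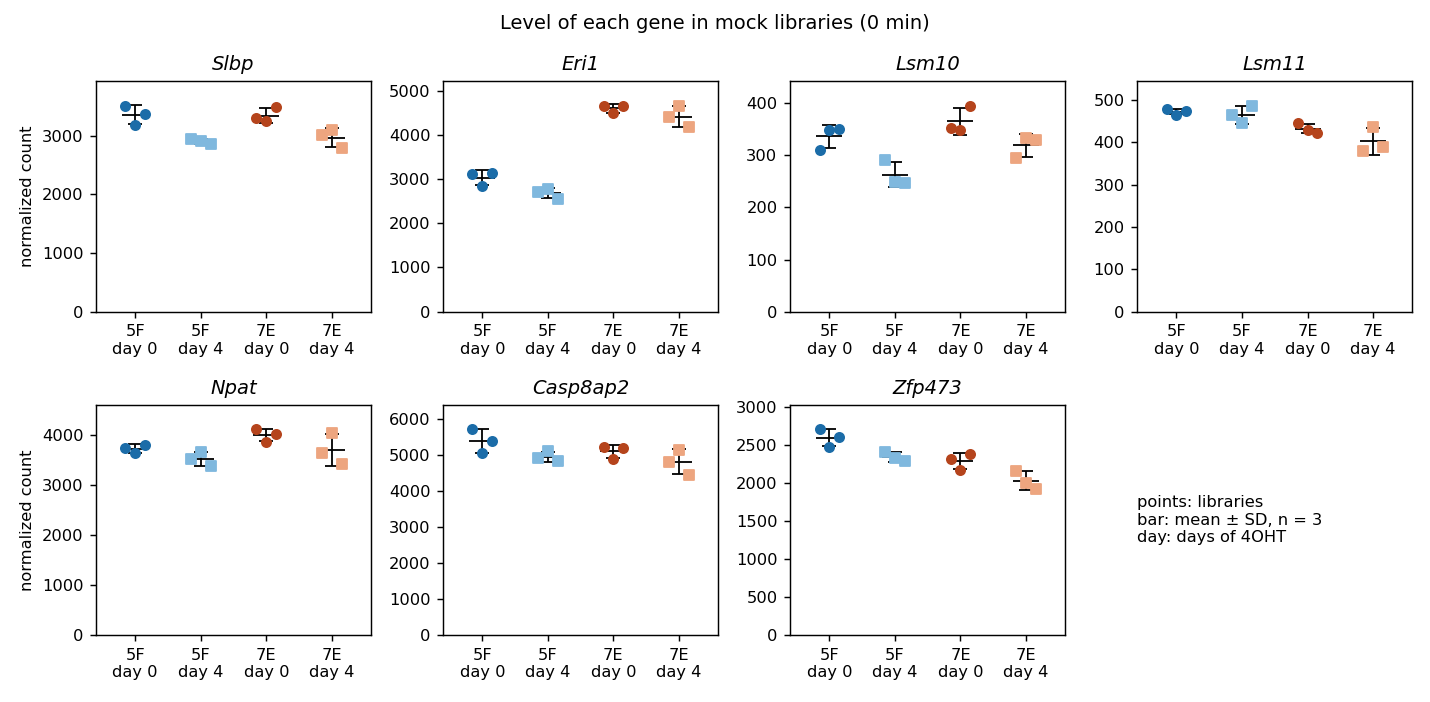
Normalized count of each gene in the mock libraries, with 1 point per library and the mean ± SD (n = 3) per clone and day of 4OHT. Eri1 is the gene whose 7E libraries (4168 to 4657) all sit above its 5F libraries (2547 to 3146), and for Slbp the day 4 libraries sit below the day 0 libraries in both clones.

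The first comparison asked whether the levels of these mRNAs differed after 4 days of 4OHT in clone 5F. Slbp, Eri1, Lsm10 and Zfp473 were lower in the libraries labelled day 4, 4 of 7 members with none higher. Over all genes tested, 11.6% were called lower and 12.8% higher. The member median was -0.15 on the log2 scale and the median of all genes was -0.00499. Slbp had 3508, 3188 and 3362 normalized counts at day 0 and 2934, 2907 and 2855 at day 4. The groups did not overlap, and the log2 difference was -0.21 ± 0.05 (SE, adjusted p = 0.00285). Lsm10, the smaller U7-specific protein's gene, had 309.8, 347.9 and 350.3 at day 0 and 289.9, 249.5 and 247.3 at day 4 (-0.36 ± 0.09, adjusted p = 0.00666). Its raw counts were the lowest of the members, and its 2 groups were separate.

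Eri1 fell from 3117, 2838 and 3146 to 2714, 2784 and 2547 in clone 5F (log2 difference -0.18 ± 0.05, adjusted p = 0.0158). Zfp473 fell from 2704, 2476 and 2608 to 2409, 2332 and 2287 (-0.15 ± 0.05, adjusted p = 0.0324). Both calls rested on single libraries. That of Eri1 was lost without replicate 1 (adjusted p = 0.0781) or 3 (0.101) of day 0 or replicate 3 of day 4 (0.0752), and that of Zfp473 without replicate 1 (0.175) or 3 (0.109) of day 0 or replicate 2 (0.0568) or 3 (0.104) of day 4. Casp8ap2 missed the threshold at -0.12 ± 0.05 (adjusted p = 0.0708) and passed it without replicate 2 of day 0 (0.0146) or of day 4 (0.0457). The 2 groups of Casp8ap2 overlapped, at 5067 to 5716 and 4830 to 5108. Npat differed by -0.08 (95% interval -0.18 to 0.01) and Lsm11 by -0.02 (-0.17 to 0.13), with overlapping groups.

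In clone 7E the same comparison called Slbp and Zfp473, both lower, where 19.4% of genes were called lower. Slbp had 3294, 3248 and 3480 at day 0 and 3012, 3095 and 2781 at day 4 (log2 difference -0.17 ± 0.05, adjusted p = 0.0107), a call that was lost without replicate 3 of day 0 (adjusted p = 0.0772). Zfp473 had 2315, 2173 and 2385 at day 0 and 2164, 2003 and 1918 at day 4 (-0.18 ± 0.06, adjusted p = 0.0165). That call was lost without replicate 1 (0.0621) or replicate 3 (0.0975) of day 0. The groups of neither gene overlapped, but for Zfp473 the lowest day 0 library (2173) was close to the highest day 4 library (2164). The other 5 members had estimates between -0.19 for Lsm10 (adjusted p = 0.0891) and -0.06 for Eri1 (0.349). Npat (adjusted p = 0.0077) and Casp8ap2 (0.039) passed without replicate 2 of day 4, the highest of the 3 day 4 libraries for both genes.

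Whether the day 4 difference itself differed between the clones was tested as an interaction, which called none of the 7 members (11.9% of 17209 genes were called). The estimates, clone 7E minus clone 5F, ran from -0.08 for Lsm11 (95% interval -0.29 to 0.13) to 0.16 for Lsm10 (-0.09 to 0.42). For Slbp it was 0.04, with an interval of -0.11 to 0.18.

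These differences are relative to the other genes of a library. At day 4 clone 7E had 151.1 to 155.7 gene counts per ERCC spike-in count in mock libraries, against 312.4 to 362.9 in the other 3 groups. When the spike-in counts of each single library set its scale, all 7 members in clone 7E were lower at day 4, with the median of all genes at -1.11 on the log2 scale and Slbp at -1.27. In bulk samples fewer cells and less RNA per cell cannot be told apart.

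SLBP protein accumulates in S phase, so a list of 41 S phase marker genes without Slbp and Casp8ap2 was read beside the members. Shares over all genes tested were 11.6% lower and 12.8% higher in clone 5F, and 19.4% lower and 20.7% higher in clone 7E. In clone 5F 14 of the 41 were lower at day 4 and 0 higher (median -0.07), and in clone 7E 21 were lower and 0 higher (median -0.15). Their summed level was 274000 to 286900 normalized counts at day 0 and 261300 to 268700 at day 4 in clone 5F, and 268400 to 281500 and 243900 to 254100 in clone 7E, and none of the 41 was at 0 throughout. Of 51 G2 and M phase markers, 3 were higher and 8 lower in clone 5F, and 12 higher and 9 lower in clone 7E. The part of cell cycle phase in the levels of the members was not tested. Of the trophoblast markers, 4 of the 4 tested were higher in clone 7E at day 4, where their sum went from 2282 to 2340 up to 3522 to 3579, and 8 of 10 mESC markers were lower, from 109400 to 112400 down to 94510 to 97290. The part of such markers in the member levels was not tested either.

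**Figure D2:**
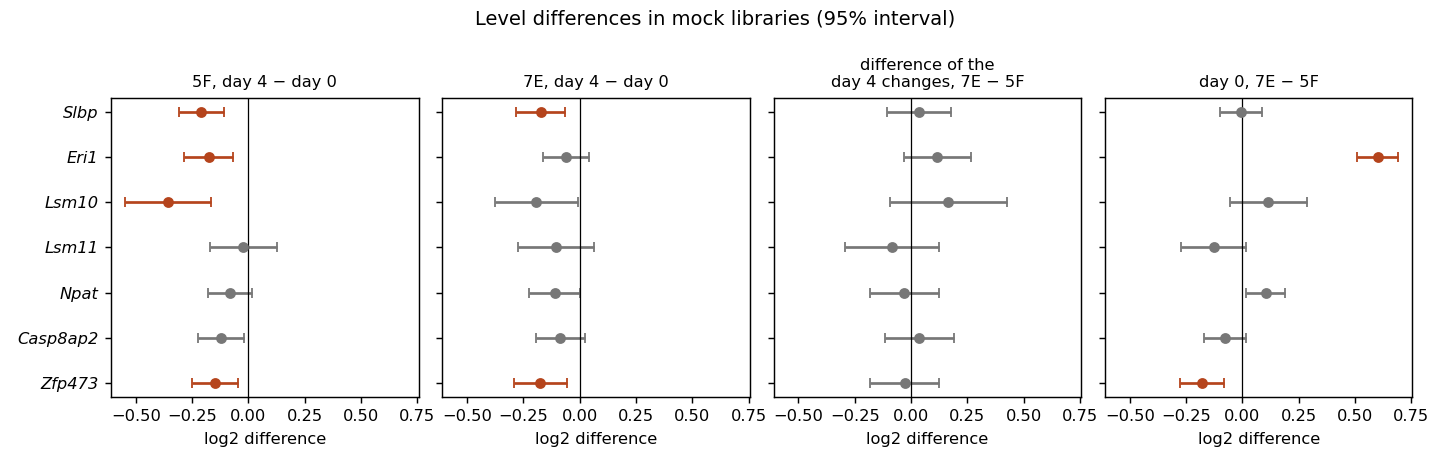
Log2 difference of each gene in the mock libraries for the 4 level comparisons, with the 95% interval from edgeR. Red points passed an adjusted p of 0.05 and grey points did not. Estimates for day 4 against day 0 lie left of 0 for all 7 genes in both clones, and Eri1 at day 0 stands out at 0.60.

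Before 4OHT, Skiv2l itself was already lower in clone 7E than in clone 5F (log2 difference -2.10 ± 0.05, adjusted p = 1.06e-19). The member that differed most between the 2 clones was Eri1. Its libraries held 4644, 4487 and 4657 normalized counts in clone 7E against 3117, 2838 and 3146 in clone 5F, a log2 difference of 0.60 ± 0.04 (SE, adjusted p = 1.27e-10). Zfp473 was lower in clone 7E, with 2315, 2173 and 2385 against 2704, 2476 and 2608 (-0.18 ± 0.05, adjusted p = 0.00419). Of all genes tested, 20% were called higher and 19.7% lower in this comparison. Npat was at 0.10 ± 0.04 (adjusted p = 0.0518) and Casp8ap2 at -0.08 ± 0.05 (0.191). The replicate numbers of these 6 libraries pair them, and with the replicate number as a block Npat (adjusted p = 0.000557) and Casp8ap2 (0.00558) passed as well. Slbp differed by -0.00469, with a 95% interval of -0.10 to 0.09. When the spike-ins of each single library set the scale, 1619 genes were called higher and 6290 lower (median of all genes -0.17). Slbp (-0.16, adjusted p = 0.016), Lsm11 (-0.29, 0.00493) and Casp8ap2 (-0.24, 0.000492) were then called lower as well, while Eri1 stayed higher at 0.44. All 6 primitive endoderm markers were lower in clone 7E at day 0, with sums of 314.7 to 359.3 against 2759 to 2855 normalized counts in clone 5F, as were 3 of 4 fibroblast markers tested (67.5 to 81.11 against 163 to 185.9). None of these markers was at 0 throughout. Their part in the member levels was not tested.

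Turning to decay, all 7 mRNAs had shorter half-lives than the median gene by 1 straight line over the whole course. Over parts of the course this did not hold for each of them, as given below. Half-lives from a straight line through ln(normalized count + 1) over the 4 times were 1.38 to 3.04 h in clone 5F at day 0, against a median of 4.83 h over the 10554 genes that fell. The members ranked between the 2.26 percent that were shorter than Npat and the 25.0 percent that were shorter than Lsm10. Npat had a half-life of 1.38 h (95% interval 1.30 to 1.48) and Casp8ap2 of 1.41 h (1.29 to 1.55), and those intervals overlapped. Zfp473 followed at 1.78 h (1.36 to 2.60), Eri1 at 2.14 h (2.00 to 2.29), Slbp at 2.19 h (1.92 to 2.55), Lsm11 at 2.48 h (2.04 to 3.16) and Lsm10 at 3.04 h (2.14 to 5.25).

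The members lost their mRNA along different courses. Npat and Casp8ap2, the genes of the histone locus body proteins, fell furthest and kept falling to the last time point. At 120, 240 and 360 min Npat was at 29.7 ± 1.82%, 11.6 ± 0.160% and 4.85 ± 0.594% of its mock mean in clone 5F at day 0 (SD, n = 2, 3 and 3), and Casp8ap2 at 27.1 ± 0.544%, 11.2 ± 1.25% and 5.13 ± 0.0910%. Zfp473, Lsm10 and Lsm11, the genes of the U7 side of the machinery, fell fast and then slowed. Zfp473 was at 20.8 ± 1.84% by 120 min, at 10.6 ± 1.33% at 240 min and at 9.85 ± 0.617% at 360 min. Lsm10 stood at 32.0 ± 7.30%, 24.9 ± 2.67% and 24.6 ± 1.84% at those times, where the last 2 ranges overlapped. The straight line had an r2 of 0.762 for Lsm10 and 0.852 for Zfp473, against 0.993 for Npat. Slbp fell least at first, with 57.9 ± 2.23% at 120 min, 36.2 ± 5.47% at 240 min and 14.2 ± 0.746% at 360 min. Its 3 libraries at 240 min held 1089, 1425 and 1130 normalized counts, where the high value is the replicate that stood apart.

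**Figure D3:**
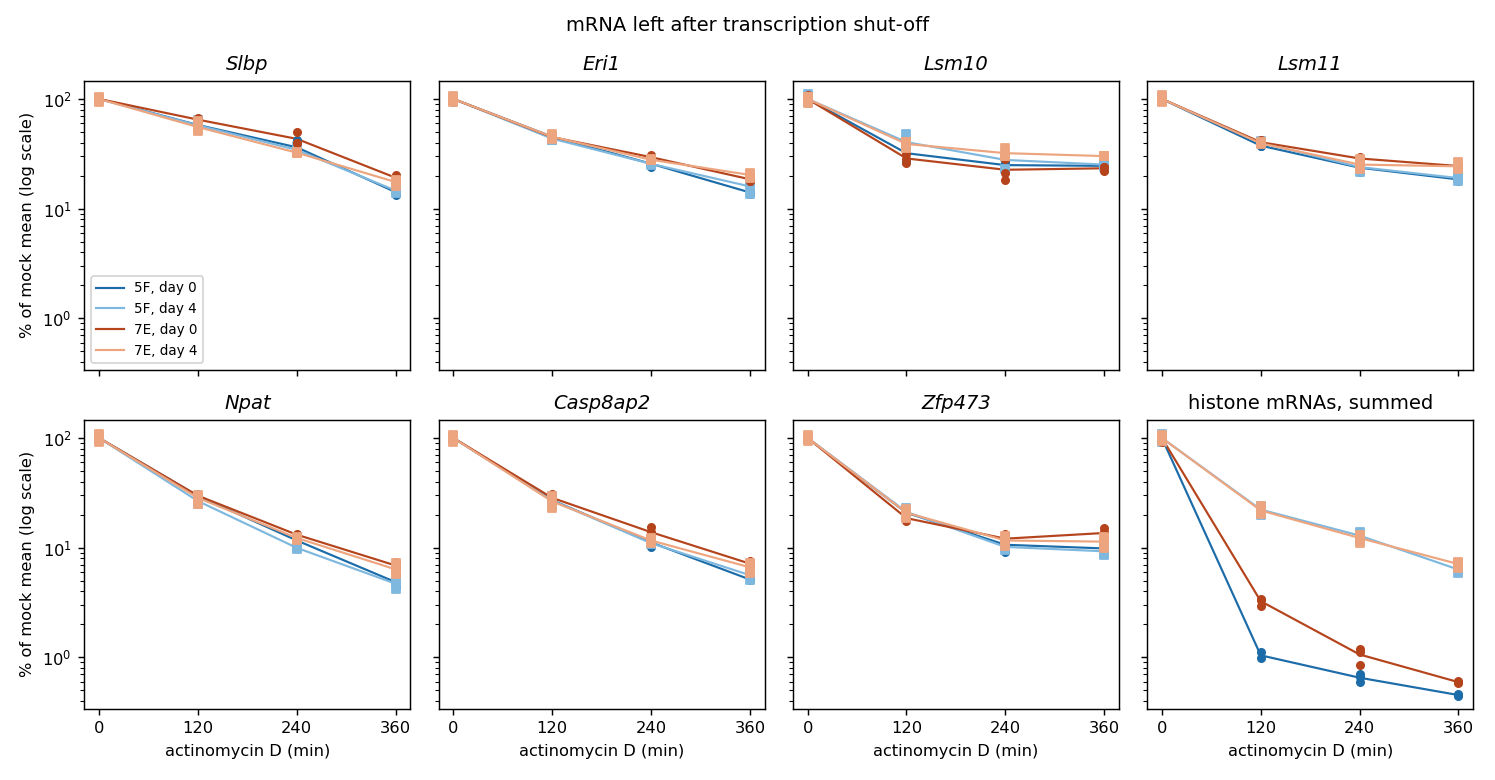
Percent of the mock mean (log axis) left at 0, 120, 240 and 360 min of actinomycin D, with 1 point per library and a line through the group means, for the 7 genes and for the summed histone mRNAs. For each gene the 4 lines run closer together than those of the histone sum. At 120 min that sum stands at 22.2% and 21.9% in the day 4 groups against 1.05% and 3.26% in the day 0 groups.

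Half-lives taken separately over the first 120 min and over the following 240 min show the same difference. Lsm10 in clone 5F at day 0 had 1.21 h (95% interval 0.889 to 1.90) and then 11.9 h, with a lower bound of 5.19 h and no upper bound. Zfp473 had 0.883 h (0.792 to 0.999) and then 3.96 h (2.48 to 9.92). Npat went from 1.14 h (1.04 to 1.26) to 1.54 h (1.41 to 1.69) and Casp8ap2 from 1.06 h (0.955 to 1.196) to 1.68 h (1.53 to 1.86), so both slowed as well. Most genes slow in this way, since the median over all genes was 2.78 h early and 7.33 h late. Slbp had 2.54 h (2.05 to 3.33) early and 1.92 h (1.55 to 2.53) late. A shorter late half-life was found for 7.06% of 10052 genes in that group. Slbp had it also in clone 5F at day 4 (2.49 and then 2.03 h) and in clone 7E at day 0 (3.19 and then 2.27 h), but not in clone 7E at day 4 (2.33 and then 2.41 h). The intervals of the 2 periods overlapped in all 4 groups. Without replicate 2 at 240 min the late half-life of Slbp was 1.95 h (1.70 to 2.27) in clone 5F at day 0, which still overlapped the early interval, and 2.27 h (2.02 to 2.61) in clone 7E at day 0, which did not overlap the early one (2.71 to 3.88). Eri1, whose product acts on the same stem-loop, had 1.75 h (1.48 to 2.14) early and 2.37 h (2.17 to 2.61) late.

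**Figure D4:**
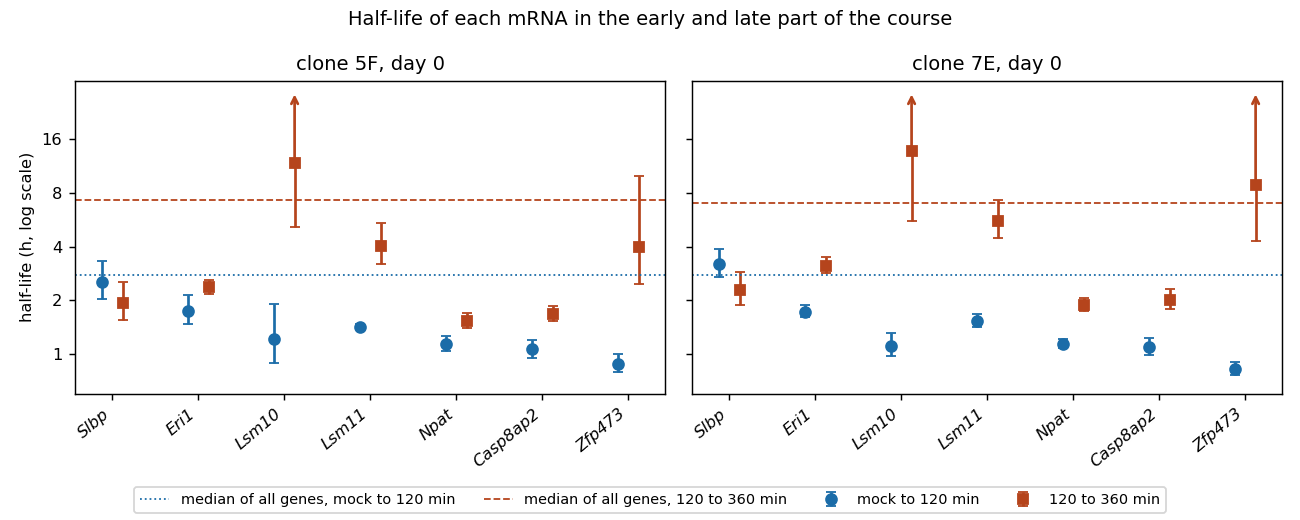
Half-life of each mRNA (h, log axis) over the first 120 min (blue circles) and from 120 to 360 min (red squares) at day 0, with 95% intervals. Arrows mark intervals with no upper bound, and the lines give the medians over all genes. For Slbp the red square lies below the blue circle in both clones (1.92 and 2.54 h in clone 5F), and for the other 6 genes it lies above.

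The decay comparison asked whether these courses changed at day 4 of 4OHT. None of the 7 members was called in clone 5F, where 0.196% of 17901 genes were, or in clone 7E, where 0.896% of 17417 genes were. Without replicate 2 of day 0 at 240 min the members called were also 0 in both clones. The differences in slope in clone 5F ran from -0.01 log2 per hour for Npat to 0.03 for Eri1, and in clone 7E from -0.05 for Zfp473 to 0.06 for Lsm10. For Slbp the 95% interval was -0.07 to 0.07 log2 per hour in clone 5F and -0.09 to 0.03 in clone 7E. With the time points as levels, no member was called in clone 5F at 120 min (0.358% of all genes were) or 360 min (0.637%), or in clone 7E at 120 min (1.39%) or 360 min (5.33%). At 120 min Slbp was at 57.9 ± 2.23% at day 0 and 57.4 ± 5.43% at day 4 in clone 5F, and at 64.7 ± 2.06% and 55.4 ± 6.81% in clone 7E. The difference of these differences called 0 of 18623 genes by edgeR (477 with an unadjusted p under 0.05) and 4 by DESeq2. The members' values lay between -0.05 log2 per hour for Casp8ap2 and 0.05 for Lsm10. Though not called by edgeR, Lsm10 in clone 7E had more left at day 4 than at day 0, with separate ranges. At 120 min it was at 38.9 ± 3.07% against 28.7 ± 2.65% (log2 difference 0.44, adjusted p = 0.237). At 360 min it was at 30.1 ± 0.173% against 23.3 ± 1.145% (0.37, adjusted p = 0.216). In clone 5F the Lsm10 ranges of the 2 days overlapped at both times.

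The histone mRNAs did differ over the same libraries, and they are set beside the members because these proteins act on them or at their genes. The 70 histone genes of the clusters summed to 128200 to 138900 normalized counts in mock libraries of clone 5F at day 0 and to 213000 to 251400 at day 4. At 120 min 1.05% of the day 0 mock mean was left and 22.2% of the day 4 mock mean. In clone 7E these shares were 3.26% and 21.9%. At 120 min 49 of the 61 histone genes tested were called with more left at day 4 than at day 0 in clone 5F. In clone 7E 49 of 61 were. Over all genes tested, 57 of 17901 were called that way in clone 5F and 143 of 17417 in clone 7E. Reads that map to several near-identical histone genes were not counted, so a single histone gene is uncertain.

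Between the clones at day 0, no member was called in slope (0.0338% of 17766 genes were, 6 genes, and 17 genes without replicate 2 at 240 min, with no member among them), with estimates of -0.00448 for Lsm10 and 0.07 to 0.09 log2 per hour for the other 6. At 360 min alone more was left in clone 7E for Eri1, Lsm11, Npat and Casp8ap2, 4 of 7 members, where 1.59% of genes were called higher. Over all genes at day 0 the lower quartile of half-lives was 3.04 h in clone 5F and 3.22 h in clone 7E. The upper quartile was 7.44 and 6.98 h, and the median 4.83 and 4.84 h. Whether the member values go beyond those of other short-lived mRNAs was not tested. Npat was at 6.88 ± 0.471% in clone 7E and at 4.85 ± 0.594% in clone 5F (log2 difference 0.50 ± 0.10, adjusted p = 0.00667). Casp8ap2 was at 7.15 ± 0.541% and 5.13 ± 0.0910% (0.48 ± 0.12, adjusted p = 0.0444), and the ranges of neither gene overlapped. Eri1 was at 18.5 ± 1.17% and 14.1 ± 0.505% (0.40 ± 0.09, adjusted p = 0.0192), and Lsm11 at 24.45 ± 1.14% and 18.5 ± 0.700% (0.40 ± 0.10, adjusted p = 0.0391). Slbp (0.43 ± 0.13, adjusted p = 0.0921) and Zfp473 (0.47 ± 0.13, 0.0694) were as far apart but missed the threshold, and Lsm10 was at -0.07. The count of 4 did not hold throughout. It was 0 with each library's own spike-ins, 2 (Eri1 and Npat) with the replicate block, 6 with DESeq2, and 0, 1 (Npat) and 0 without replicates 1, 2 and 3, although 6 or 7 estimates stayed above 0 in each of those settings.

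The 3′ UTRs were read for 2 short elements, TATTTAT and TGTANATA, on the mRNA strand of 1 transcript per gene. The first is the core of an AU-rich element and the second is the site that Pumilio proteins recognize. TGTANATA was found in Npat (2 sites), Casp8ap2 (1) and Eri1 (3), and TATTTAT in Lsm11 (1). In Slbp, Lsm10 and Zfp473 neither set of letters was found. Of the 7173 mRNAs with relative binding and a 3′ UTR, 26.4% held TGTANATA and 28.7% TATTTAT, with a median 3′ UTR of 1015 bases, where Eri1 has 3875 and Lsm11 5344. In the first 500 bases of the 3′ UTR, 10.5% of 5113 mRNAs held TGTANATA, and of the members Npat and Casp8ap2 did. Their sites are shown since these are the mRNAs with the shortest half-lives, with the element in capitals. The Npat sites are at chr9:53572804-53572831 and chr9:53573609-53573636 and the Casp8ap2 site at chr4:32653084-32653111, all on the plus strand of GRCm38. A match is a description of the letters and not a measured site.
Npat, first site: cttcctagttTGTAAATAgactctcatg
Npat, second site: aaatgggatgTGTAAATAactgtgttca
Casp8ap2: atagtatattTGTATATAtgtacaatta

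Relative binding was taken from CRAC, in which RNA is crosslinked to a tagged protein and sequenced. For each mRNA it is the share of normalized counts in SKIV2L, XRN1 (the cytoplasmic 5′-3′ exonuclease) and MTR4 (the helicase of the nuclear exosome), which sum to 1, and AVEN is set on the same total. The replicates were pooled in that table, so these values have no error. Slbp had a SKIV2L relative binding of 0.698, higher than 98.9% of 7240 mRNAs (median 0.267), with 0.129 for XRN1 (percentile 7.16) and 0.173 for MTR4 (percentile 11.8). Its AVEN value was 0.513 (percentile 89.0). The 50 histone mRNAs in the table had a median SKIV2L value of 0.534, below that of Slbp.

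Lsm10 was at the other end. Its SKIV2L value was 0.0361 (percentile 0.414) and its MTR4 value was 0.684 (percentile 94.2). Lsm10 was at 10.1 RPKM in the tagged lines by the authors' median (percentile 27.8), on a transcript of only 943 bases. Npat had the highest XRN1 value of the 6, at 0.533 (percentile 87.1), with 0.153 for SKIV2L (percentile 19.9). Lsm11 was also low for SKIV2L, at 0.153 (percentile 19.7), but its level in the tagged lines was 1.53 RPKM by the authors' median, lower than that of nearly all mRNAs in the table (percentile 2.03). Eri1 and Casp8ap2 were between the lower and upper quartiles of all mRNAs for SKIV2L, XRN1 and MTR4, and Casp8ap2 was above it for AVEN at 0.443 (percentile 80.8). With the authors' scaling to RNA levels Slbp stayed high for SKIV2L (0.649, percentile 98.0). The Lsm10 value for SKIV2L was the same with and without that scaling (0.0361, percentile 0.442 with it). Slbp and Lsm10 were both called lower at day 4 in clone 5F. A relation of relative binding to these levels was not tested.

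**Figure D5:**
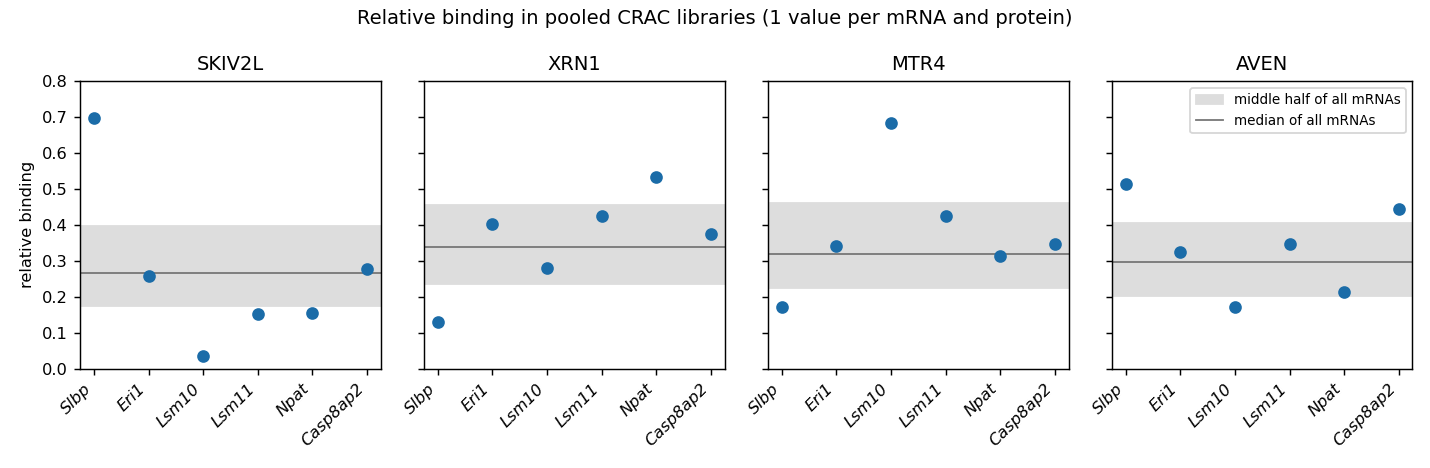
Relative binding of SKIV2L, XRN1, MTR4 and AVEN to the 6 mRNAs in the table, 1 pooled value each, with the median (line) and the range between the quartiles (grey band) of 7240 mRNAs. Slbp lies at 0.698 for SKIV2L and Lsm10 at 0.684 for MTR4, both outside the grey bands.

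Partners of the 7 proteins were read as 6 wider lists, against shares over all genes of 12.8% higher and 11.6% lower in clone 5F and 20.7% higher and 19.4% lower in clone 7E. In clone 5F at day 4, 4 of 6 genes that control SLBP by phosphorylation or ubiquitylation were lower and 0 higher, with a median of -0.16. In clone 7E it was also 4 of 6 and 0, with a median of -0.16. They included Ccnf, the cyclin F gene whose product marks SLBP for degradation, at -0.28 ± 0.04 in clone 5F and -0.17 ± 0.04 in clone 7E. Dcaf11 was at -0.20 ± 0.05 and -0.34 ± 0.06, and Csnk2a1 at -0.18 ± 0.04 and -0.17 ± 0.05. Of the 18 turnover factors, 3 were higher and 3 lower in each clone. Upf1, which starts histone mRNA decay when DNA synthesis stops, was higher at day 4 by 0.36 ± 0.05 in clone 5F and 0.35 ± 0.05 in clone 7E, and Exosc10 by 0.18 ± 0.04 and 0.26 ± 0.04. Lsm6, a subunit of the LSM ring, was lower in both (-0.17 ± 0.05 each).

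Of the 12 cleavage and cap-binding factors, 2 were higher and 1 lower in clone 5F, and 2 higher and 2 lower in clone 7E. Sympk, the scaffold of the cleavage complex, was higher in both (0.22 ± 0.05 and 0.28 ± 0.05). Of the 5 Sm genes shared with other snRNPs, 1 was higher and 2 lower in each clone, with Snrpg lower in both (-0.17 ± 0.06 and -0.19 ± 0.06). Of 9 histone transcription genes tested 1 was higher and 3 lower in clone 5F, and 0 higher and 3 lower in clone 7E. Ccne1, the cyclin E gene that acts on NPAT, was at -0.17 ± 0.04 and -0.41 ± 0.05. Of the 4 translation partners of SLBP, 1 was higher and 2 lower in clone 5F, and 0 higher and 2 lower in clone 7E, with Ddx19b at -0.29 ± 0.05 and -0.27 ± 0.05. At day 0 the turnover list had 8 genes higher and 3 lower in clone 7E than in clone 5F, against 20% and 19.7% of all genes, led by Lsm4 (0.67 ± 0.05), Upf1 (0.61 ± 0.04) and Lsm1 (0.53 ± 0.06). In decay, 0 genes of the 6 lists were called by slope in either clone, where 0.196% of all genes in clone 5F and 0.896% in clone 7E were. With the time points as levels, none was called at 120 min. At 360 min 1 of 9 histone transcription genes was higher in clone 5F, where 0.637% of all genes were called. In clone 7E 3 of 12 cleavage and cap-binding factors were lower and 1 of 6 SLBP control genes was higher, where 5.33% were called.

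For each member the 2 genes with the most similar course were found over the 16 group means among 10593 genes, where time sets most of the variation and the median correlation was already 0.870 to 0.938. They were Kat5 and Dck for Slbp (Pearson r 0.994 and 0.993), Otud4 and Tent4b for Eri1 (0.997 and 0.997), Atp6v0e2 and Mfsd12 for Lsm10 (0.993 and 0.992), Arid4a and Cnot4 for Lsm11 (0.998 and 0.997) and Plag1 and Usp31 for Zfp473 (both 0.996). Armc8 and Nup153 were closest to Npat (both 0.998), and Fbxo33 and Cstf2 to Casp8ap2 (both 0.999). Among the members, Npat and Casp8ap2 were most alike (0.997), then Lsm11 and Zfp473 (0.989), while the best match of Slbp was Npat (0.969).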

How the data were processed

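Gene and ERCC spike-in counts, which the authors deposited as raw reads per gene, came from rRNA-depleted, unstranded libraries mapped with STAR to mm10 (uniquely mapped reads only). Libraries of the same time were brought to one scale with DESeq2 size factors, and each time was then weighted by its ERCC factor (1, 0.649, 0.531 and 0.438), taken from 34 ERCC RNAs with a mean above 50 counts. Levels and slopes were tested with edgeR 4.0.16 (quasi-likelihood, filterByExpr, Benjamini-Hochberg over all genes, threshold 0.05), with DESeq2 1.42.0 as an alternative, in R 4.3.3. The fits were tested on simulated data, with independent libraries and, for decay, straight lines in time. That simulation does not cover curved courses or libraries that deviate together. Relative binding is a ratio that the authors deposited from pooled CRAC counts. Its scaled form is a score, and the RPKM values are likewise the authors' deposited ones. Columns of the authors' fold changes, adjusted p-values and half-lives were not used. Named genes were all 7 members, the 2 genes closest to each, and at most 3 called genes per list and direction with a mean of at least 100 counts. The members and lists were chosen with earlier results of these data known. Same-numbered libraries deviated together between the clones at day 0 (correlations 0.189 to 0.444 in mock) and over the time course (0.139 to 0.683), but not between days in mock libraries. Gene models came from Gencode M21, and the U7 sequence from RefSeq (GRCm38.p6). Library depth was 24440935 to 34114250 gene counts.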

Additional observations from a re-analysis of the deposited data

Results flagged for a closer look

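The day 4 change in level differed between the clones, by the test of the interaction, for none of the 7 members. It did so for 28 of 61 histone genes, all with the lower change in clone 7E (median -0.38). That test called 11.9% of all genes. At day 0, 52 of 61 histone genes were higher in clone 7E (median 0.45), where 20% of all genes were. The mean histone sum in mock libraries was 190100 at day 0 and 276700 at day 4 in clone 7E. In clone 5F it was 131800 and 230400. Among the wider lists and label checks the day 4 change differed for 3 genes. For Skiv2l the change in clone 7E minus that in clone 5F was -1.31 on the log2 scale (adjusted p = 4.39e-10). For Ccne1 it was -0.24 (adjusted p = 0.00966), with -0.41 in clone 7E and -0.17 in clone 5F. For Dcp1a, a decapping activator in the turnover list, it was -0.21 (adjusted p = 0.0145), with -0.17 in clone 7E. Single outlying values were not tested in groups of 3 libraries. Replicate 2 at day 0 and 240 min, which stood apart in both clones, is described above.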

How the results depend on the processing

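The alternatives at 360 min between the clones, the half-life over mock and 120 min alone, the values without replicate 2 of day 0 at 240 min and the levels per kilobase of 1 transcript were chosen after seeing the data. With scaling by the spike-ins of single libraries, the day 4 change called 14976 genes in clone 7E (6551 otherwise), the clone difference called 14373 (2055), and the clone difference of Slbp (-0.995), Eri1 (-0.916), Lsm10 (-0.86) and Casp8ap2 (-0.996) turned negative, as the median of all genes shifted with this scaling. The slope comparison in clone 5F called 35 genes, with 19 under own spike-ins, 64 at 120 min and 114 at 360 min as levels, 14 without mock and 2 to 4 without a replicate. In clone 7E it called 156, with 270 by DESeq2, 242 at 120 min, 928 at 360 min, 237 without mock and 26 to 51 without a replicate. The clone difference in slope called 0, with 1 under own spike-ins, 4 by DESeq2, 13 at 120 min, 14 at 360 min and 5 without mock. Between the clones at day 0 it called 6, with 2 under own spike-ins, 37 by DESeq2, 3 with no filter, 23 at 120 min, 332 at 360 min, 23 without mock, 17 without replicate 2 at 240 min and 0 without any 1 replicate number. The median member half-life in clone 5F at day 0 was 2.14 h, with 2.37 h without mock and 1.21 h over mock and 120 min. Without mock it was 2.76 h in clone 5F at day 4, 3.13 h in clone 7E at day 0 and 3.47 h at day 4, and over mock and 120 min 1.52, 1.15 and 1.48 h. Slbp relative binding to SKIV2L went from 0.698 to 0.649 with scaling to RNA levels. The cause was not tested for the slope, half-life and binding values.

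In mock libraries the replicate numbers did not pair day 0 with day 4 (correlations -0.397 to -0.086 in clone 5F and -0.35 to -0.04 in clone 7E). With the replicate block the day 4 comparison called 2951 genes in clone 5F (3998 without), where Eri1 (adjusted p = 0.0545) and Zfp473 (0.0954) were not called, and 6012 in clone 7E. With the block the slopes called 28, 116, 0 and 7 genes in the comparisons above. Of 791 member values under an alternative, 49 were uncalled and had the other sign than the uncalled value reported, at -0.16 to 0.17. Lsm10 had as few as 114 raw counts in a library, the fewest of the members, but Zfp473 had the largest errors of slope.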
